A study of Caenorhabditis elegans with 2 samples.

Results

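The chaperone and heat shock genes of Caenorhabditis elegans were taken as the protein-coding genes named hsp, dnj, cct or pfd in the Ensembl models of the ce11 assembly (WBcel235). The name rule found 65 of 19973 protein-coding genes on the 6 nuclear chromosomes. Chromatin immunoprecipitation and sequencing (ChIP-seq) had been done for F52B5.7 fused at its C-terminal end to GFP and FLAG, in worms of strain OP606 (unc-119(tm4063) III; wgIs606). Whole young adults of mixed sex were collected 63 h after L1 synchronisation by starvation, and sonicated chromatin was pulled down with an anti-GFP antibody. The labels give 2 biological replicates of this single strain, so there is no second group to compare. Every animal of both replicates carries the integrated transgene, and tissues were not separated. The labels also point to a control experiment, not analysed here.

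Molecular chaperones bind unfolded proteins and help them to fold, assemble or cross membranes. HSP70 proteins work in ATP-driven cycles that J-domain proteins, the DNJ family, start, while HSP110 proteins release the nucleotide. HSP90 acts late in the folding of kinases and receptors, HSP60 folds proteins inside the mitochondrial matrix, and the CCT ring folds actin and tubulin handed over by prefoldin, the PFD complex. Small heat shock proteins hold unfolding proteins without using ATP. Many of these genes are switched on by heat through the factor HSF-1, which binds repeated GAA units in alternating orientation.

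The optimal list of 1032 peaks, which the authors kept after the replicates were compared, placed a summit in the promoter window of 6 chaperone genes. These were dnj-13, hsp-60, hsp-1, cct-8, hsp-90 and hsp-3. This window took in the 1000 bp before and the 500 bp after each annotated transcription start site (TSS). The 6 genes made up 9.23% of the 65 (exact Clopper-Pearson 95% interval 3.46 to 19.0, counting error only), where 3.0% of all protein-coding genes, or 600, had such a summit. Their peaks were among the strongest, at ranks 57 to 257 of the 1032. All 6 genes also had a region among the 1032 strongest of each replicate, which 1.47% of all genes had. The optimal list was made from these same replicates, so this is a description and gives no independent support. Genes are not replicates and neighbours can share a peak, so these shares say nothing of the variation between cultures. The set was also chosen with earlier results of these data known, so the interval is no test against the 3.0%.

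The 6 summits with 50 bp on each side are shown because the summit is the base of highest signal in each peak. They are ce11 sequence read from RefSeq, 5′ to 3′ along the strand of the named chaperone gene. Capitals mark the 4 motifs searched, namely the paired heat shock units GAANNTTC and TTCNNGAA, the tRNA B box core GTTCGA and a further 6-mer, ACGCAG, with GTTCGA and ACGCAG searched on both strands and each dimer being its own reverse complement.

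dnj-13, chrII:11545426-11545526, plus strand: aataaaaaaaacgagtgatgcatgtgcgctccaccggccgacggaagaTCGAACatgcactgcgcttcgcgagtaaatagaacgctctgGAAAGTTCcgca

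hsp-60, chrIII:1619075-1619175, plus strand: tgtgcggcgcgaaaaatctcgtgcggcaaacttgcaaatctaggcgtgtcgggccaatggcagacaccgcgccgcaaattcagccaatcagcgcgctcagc

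hsp-1, chrIV:17278513-17278613, plus strand: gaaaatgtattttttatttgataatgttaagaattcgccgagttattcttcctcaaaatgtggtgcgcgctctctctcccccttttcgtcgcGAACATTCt

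cct-8, chrIV:1094318-1094418, minus strand: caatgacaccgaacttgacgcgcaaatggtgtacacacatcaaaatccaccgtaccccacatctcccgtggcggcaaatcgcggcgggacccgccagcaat

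hsp-90, chrV:14685688-14685788, plus strand: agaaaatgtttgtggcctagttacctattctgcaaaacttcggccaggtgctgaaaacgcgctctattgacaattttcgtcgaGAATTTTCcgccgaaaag

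hsp-3, chrX:6092123-6092223, minus strand: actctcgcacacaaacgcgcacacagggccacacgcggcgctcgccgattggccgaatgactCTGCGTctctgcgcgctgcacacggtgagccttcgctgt

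The head-to-head unit pair GAANNTTC stood in 3 of these 6 windows, against 4.36% of windows of the same length at all 1032 optimal summits. In dnj-13 it lay 39 to 46 bp downstream of the summit along the gene. In hsp-1 it lay 42 to 49 bp downstream, and in hsp-90 33 to 40 bp downstream. In each of the 3 genes the pair thus sat on the side of the summit that faces the TSS. GAANNTTC was also frequent upstream of chaperone genes whether bound or not. It stood in the 500 bp upstream of 34 of the 65 (52.3%), against 29.8% of all protein-coding genes. The tail-to-tail pair TTCNNGAA stood in 0 of 6 windows and in 3.49% of all. GTTCGA was found in the dnj-13 window and in 12.6% of all, and ACGCAG in the hsp-3 window and in 10.5% of all. A match describes letters in the window and does not show that a factor is there.

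Other letters were shared more widely by the 6 windows. The 6-mer GAGCGC, on either strand, stood in 5 of 6, all except cct-8, and in 8.43% of all optimal windows. AGCGCG, which overlaps it by 5 letters, stood in 4 of 6, in hsp-60, hsp-1, hsp-90 and hsp-3, and in 8.43% of all. These 6-mers were picked after all 6-mers of the windows had been counted, so the counts carry no test. The median GC content of the 6 windows was 54.0%, against 49.5% over all optimal summits, with hsp-3 highest at 65.3% and hsp-1 lowest at 39.6%.

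Among the HSP70 and HSP110 genes, 2 of 6 had an optimal promoter peak, hsp-1 and hsp-3. The gene hsp-1 codes for the constitutive cytosolic HSP70. Its peak, chrIV:17278481-17278662, had a signal value of 259.3 in the optimal list (rank 75), 100.6 in replicate 1 (rank 245) and 156.3 in replicate 2 (rank 43). Signal values are the authors' own, with no stated scale, and were compared only within a list. The gene was thus in the strongest regions of both replicates and stood higher in replicate 2. The summit lay 396 bp upstream of the hsp-1 TSS, the nearest protein-coding TSS. It was 61 bp from F26D10.23, an annotated noncoding RNA of 90 nt, and 1483 bp from the nearest snoRNA gene.

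The gene hsp-3 codes for a BiP-type HSP70 of the endoplasmic reticulum. Its peak, chrX:6091978-6092367, had a signal of 184.8 in the optimal list (rank 257), 122.9 in replicate 1 (rank 128) and 66.2 in replicate 2 (rank 919). It was the only one of the 6 that was near the lower limit of the strongest regions in a replicate. Its summit lay 49 bp upstream of its own TSS, closer than in any other bound chaperone gene. The second BiP gene, hsp-4, which is induced by unfolded protein in the endoplasmic reticulum, had no optimal peak. Its best pooled candidate ranked 12654, its replicate 1 candidate 4189, and replicate 2 listed none in the window.

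The other HSP70 and HSP110 genes had only candidates below the optimal list. For hsp-110, a nucleotide exchange factor of HSP70, the best region in the promoter window ranked 1705 in the pooled list, 9412 in replicate 1 and 494 in replicate 2. For hsp-6, the mitochondrial HSP70, these ranks were 7940, 13885 and 2017. Both genes thus had a better ranked region in replicate 2, but the summits compared differed in place. In replicates 1 and 2 they lay at -25 and -191 bp from the TSS for hsp-110. For hsp-6 they lay at 237 and -463 bp. The heat-inducible hsp-70 ranked 24973 in the pooled list and 20146 in replicate 2, with no region in replicate 1.

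The cytosolic HSP90 gene, hsp-90, was bound, and hsp-75, which RefSeq lists with an HSP90-like ATPase domain, was not. The hsp-90 peak, chrV:14685675-14685812, had a signal of 230.7 in the optimal list (rank 128), 89.6 in replicate 1 (rank 330) and 145.7 in replicate 2 (rank 61). Its summit lay 422 bp upstream of one hsp-90 TSS and inside an intron of a longer hsp-90 transcript. The nearest TSS was that of the neighbour C47E8.4, 253 bp away. The best region of hsp-75 ranked 28195 in the pooled list, and neither replicate listed one.

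The mitochondrial chaperonin gene hsp-60 shared its peak with its partner. The peak, chrIII:1619090-1619204, had a signal of 262.5 in the optimal list (rank 70), 81.0 in replicate 1 (rank 469) and 187.1 in replicate 2 (rank 21). The replicates differed more in rank here than for dnj-13 or cct-8, though both placed the region among their strongest. The summit lay 617 bp upstream of hsp-60 and 196 bp upstream of Y22D7AL.10, which is transcribed the other way. RefSeq lists Y22D7AL.10 as the 10 kDa mitochondrial heat shock protein, the lid of the HSP60 chamber. One peak thus lies between the genes of the mitochondrial chaperonin and its lid, and the lists do not say to which gene it belongs.

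In the J-domain family, 1 of 29 genes was bound (3.45%, near the 3.0% of all genes), dnj-13. Its peak, chrII:11545388-11545579, had a signal of 278.8 in the optimal list (rank 57), 147.1 in replicate 1 (rank 63) and 120.7 in replicate 2 (rank 131). It was the strongest promoter peak of the 65 genes in the optimal list and in replicate 1, while hsp-60, hsp-1, hsp-90 and cct-8 stood above it in replicate 2. Its summit lay 225 bp upstream of the dnj-13 TSS, in an intron of dhgd-1. It was also inside F54D5.22, an annotated noncoding RNA of 150 nt on the opposite strand to dnj-13. ChIP-seq cannot tell these overlapping genes apart. The window of F54D5.9 held the same summit, at -648 bp from its TSS.

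The next J-domain genes lay just outside the optimal list, whose weakest peak had a signal of 114.6. The best region of dnj-20, which codes for a J-domain protein, had a pooled signal of 107.2 (rank 1251), with rank 774 in replicate 1 and 1474 in replicate 2. That of dnj-14 ranked 1562 in the pooled list, 1398 in replicate 1 and 15216 in replicate 2. In all, 21 of the 29 family members had a pooled candidate in the promoter window (72.4%, against 38.7% of all genes). Their median best rank was 12377, against 10883 for all genes with a candidate.

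The CCT ring had 1 bound gene of 8, cct-8, which codes for the theta subunit. Its peak, chrIV:1094290-1094460, had a signal of 252.2 in the optimal list (rank 86), 123.1 in replicate 1 (rank 127) and 128.3 in replicate 2 (rank 98). The replicates placed it at closely similar ranks. The summit lay 448 bp upstream of cct-8 and 173 bp upstream of Y55F3AR.2, a thioredoxin-domain gene on the other strand and the nearest TSS. A noncoding RNA gene of 123 nt, Y55F3AR.4, lay 159 bp away.

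The first CCT subunit gene outside the list was cct-1, with a pooled signal of 109.2 (rank 1192), rank 5061 in replicate 1 and rank 851 in replicate 2. Its summit was nearer to the TSS of mig-5. The subunit gene cct-7 ranked 2374 in the pooled list, 4833 in replicate 1 and 1425 in replicate 2. The ring holds all 8 subunits. A pooled candidate stood in the promoter window of 5 of the 8 genes (62.5%, against 38.7% of all genes), and 3 had none.

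No prefoldin gene (0 of 6) had an optimal promoter peak, a count too small to set apart from the 3.0% of all genes. The best was pfd-1, a prefoldin subunit gene, with a pooled signal of 95.1 (rank 1855) at a summit nearer to F01G4.6. Its best region ranked 13830 in replicate 1, at 220 bp from the TSS, and 878 in replicate 2, at -308 bp. The next were pfd-4, at rank 9631 with a candidate shared with dnj-2, and pfd-5 at rank 10232.

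No small heat shock gene (0 of 13) was bound, where 3.0% of all genes were, and 5 of 13 had a pooled candidate (38.5%, against 38.7% of all genes). With 13 genes, neither count stands apart from the share over all genes. The best was hsp-43 at rank 6564. The divergent heat-inducible pair hsp-16.2 and hsp-16.41 shared one candidate at rank 9262 in the pooled list, 12268 in replicate 1 and 18750 in replicate 2. The near-identical hsp-16.1 and hsp-16.48 genes, of which the models hold 2 copies each, were among 11 chaperone genes with no region in any of the 3 candidate lists. Reads cannot be placed with certainty in such copies, so an empty list there does not show low signal.

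**Figure D1:**
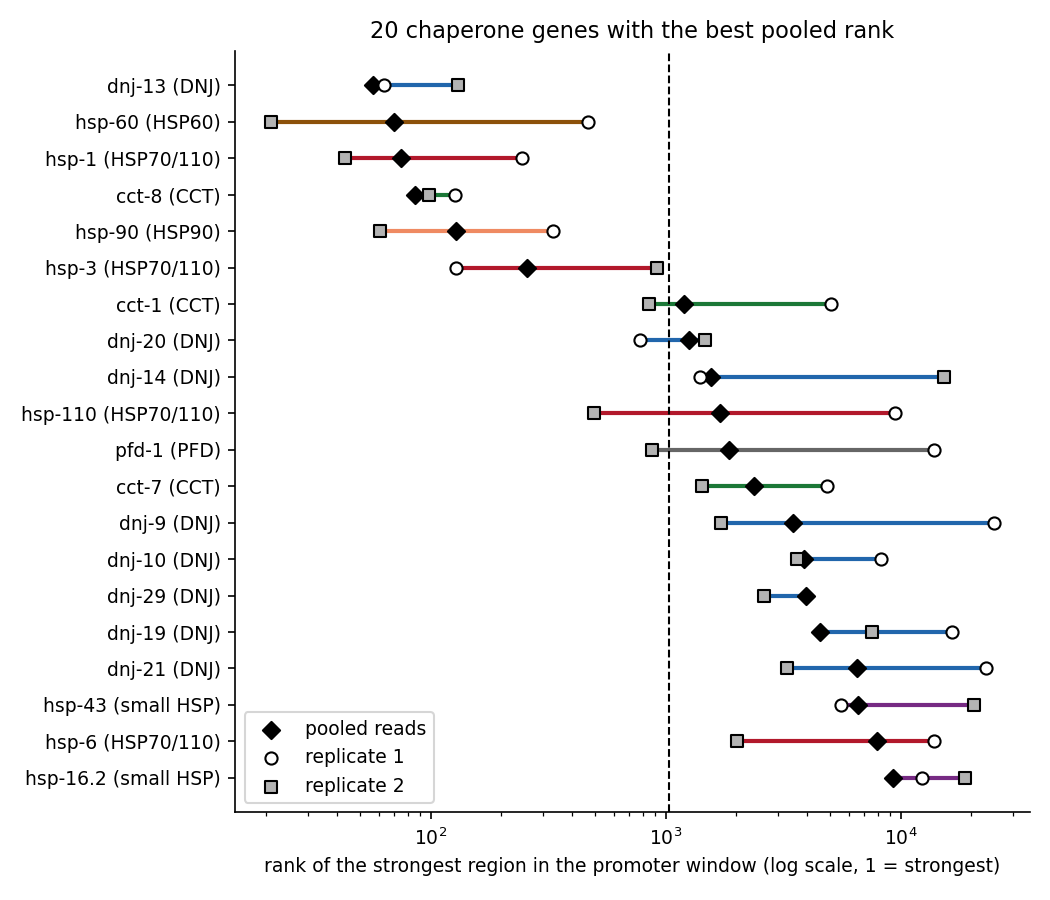
Rank of the strongest region in the promoter window (log scale, 1 is strongest) for the 20 chaperone genes with the best pooled rank, in the pooled list (diamonds), replicate 1 (open circles) and replicate 2 (grey squares). Lines join the ranks of 1 gene and are coloured by family, and the dashed line marks rank 1032. The 6 bound genes lie left of the line in all 3 lists, and hsp-16.41, not drawn, has the values of hsp-16.2.

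Between the replicates, 4 more genes crossed rank 1032. Replicate 1 alone placed 7 of 65 chaperone genes among its strongest regions (against 2.61% of all genes), adding dnj-20. Replicate 2 alone placed 9 (13.8%, against 3.05%), adding cct-1, hsp-110 and pfd-1. Over the whole candidate lists the shares were larger in both sets of genes. A pooled candidate stood in the window of 44 chaperone genes (67.7%, against 38.7%; with 250 bp on each side 22, against 21.1%), a replicate 1 candidate in 38 (58.5%, against 39.5%) and a replicate 2 candidate in 45 (69.2%, against 40.7%). The median best pooled rank was 9562.5 for the 44 and 10883 for all 7735 genes with a candidate. Among the strongest 3000 pooled candidates the count was 12 of 65 (18.5%, against 7.19%).

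**Figure D2:**
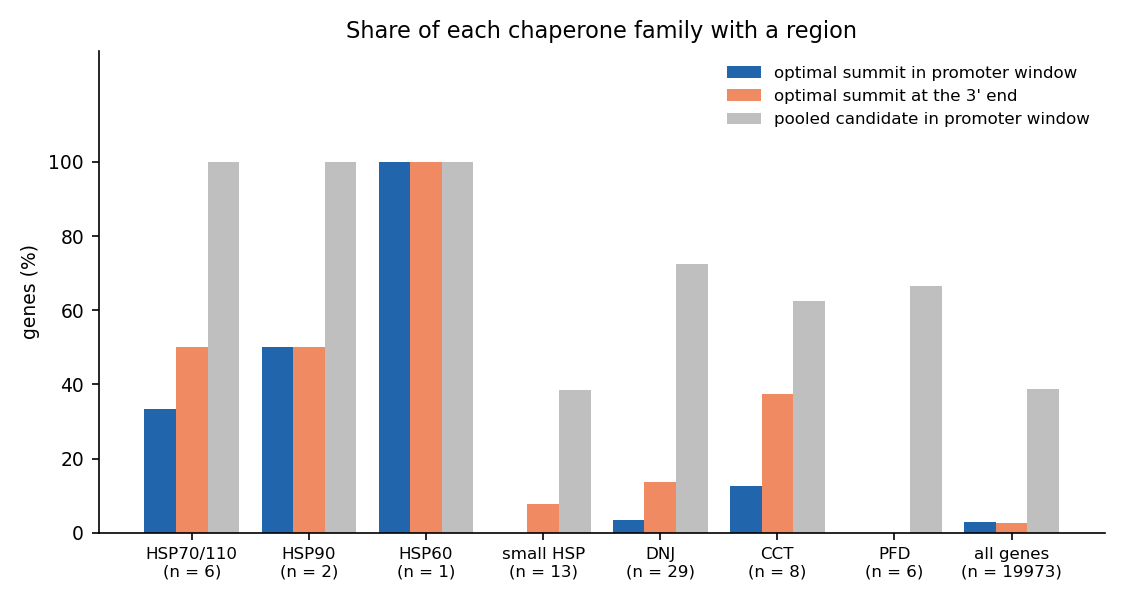
Share of the genes of each family (percent, number of genes under each name) with an optimal summit in the promoter window (blue), an optimal summit at the 3′ end (orange) or a pooled candidate in the promoter window (grey), beside all protein-coding genes. HSP60 is a single gene and HSP90 a pair, so their bars move in large steps.

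The number of bound genes turned on how a summit was given to a gene. With 500 bp before and after the TSS, 5 were bound (7.69%, against 2.23% of all genes), hsp-60 being lost. With 250 bp on each side it was 2, dnj-13 and hsp-3 (3.08%, against 1.34%). When a summit went only to the gene with the nearest TSS it was 3, dnj-13, hsp-1 and hsp-3 (4.62%, against 2.45%). Any overlap of the region with the window added hsp-12.3, a small heat shock gene, for 7 genes (against 3.36%). All 6 were still bound with 2000 bp upstream (against 4.08%), with the strongest 516 optimal peaks (against 1.54%) and with peaks matched in the ce10 list (against 2.86%). Regions of both replicates gave 7 genes with doubled lists (against 2.70%), adding dnj-20, and 5 with halved lists (against 0.856%).

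The placing of the peaks varied among the bound chaperone genes, from -49 to -617 bp from the TSS. In 6 of 6 the summit was upstream, at a median of -409 bp, whereas 74.2% of all 600 bound genes had it upstream, at a median of -227.5 bp. Annotated starts of many worm genes are trans-splice sites, so transcription may begin further upstream than the model shows. Their own TSS was the nearest in 3 of 6, dnj-13, hsp-1 and hsp-3, against 81.2% of all bound genes. In the optimal list 5 of 6 peaks were under 200 bp wide, where 32.7% of optimal peaks at ranks 1 to 257 and 11.9% of all were. This was not so in replicate 1, where all 6 regions were 360 bp wide, the median of that list. In replicate 2 the regions of dnj-13, hsp-1 and hsp-90 were 135, 119 and 106 bp wide, and those of hsp-60, cct-8 and hsp-3 had the list's median of 424 bp. None of the 6 summits lay within 250 bp of a tRNA, snoRNA, snRNA, rRNA or miRNA gene, which 17.5% of the 502 summits in promoter windows did. Without such peaks the count was thus still 6 (against 2.50% of all genes). Within 250 bp of an annotated noncoding RNA of up to 200 nt were 3 of 6, dnj-13, hsp-1 and cct-8, against 17.9% of promoter summits. Without peaks near either kind of gene 3 chaperone genes were bound, hsp-3, hsp-60 and hsp-90 (4.62%, against 2.21%). The bound genes lie on chromosomes II, III, IV, V and X. On chromosome I 0 of 11 members were bound, where 114 of all 2878 protein-coding genes of that chromosome were. With 11 members, this count does not stand apart from that share.

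At the other end, 13 of 65 chaperone genes had an optimal summit, against 2.69% of all protein-coding genes. The window here ran from 250 bp before to 500 bp after an annotated 3′ end. It was chosen after the positions had been seen, so the shares are a description. The count exceeded the 6 genes with a promoter peak. Leaving out summits in the promoter window of another gene left 4 (6.15%, against 1.60% of all genes). No such exclusion was made for the promoter count. The 13 comprised 4 DNJ genes (dnj-5, dnj-12, dnj-13, dnj-20), 3 HSP70 and HSP110 genes (hsp-1, hsp-6, hsp-110), 3 CCT genes (cct-2, cct-6, cct-7), hsp-60, hsp-90 and hsp-12.3. In the first 250 bp past the 3′ end, 15.4% of chaperone genes had an optimal summit, against 1.55% of all genes. Both replicates placed a region among their strongest at the 3′ end of 9 of the 65 (13.8%, against 1.37%). Replicate 1 alone gave 13 genes (against 2.44%) and replicate 2 alone 12 (against 2.82%). With 250 bp on each side of the 3′ end it was 12 (against 2.02%), and with peaks matched in the ce10 list 13 (against 2.58%). Without peaks near tRNA, snoRNA, snRNA, rRNA or miRNA genes it was 11 (against 2.33%), and 10 without those near short noncoding RNAs as well (against 2.28%).

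**Figure D3:**
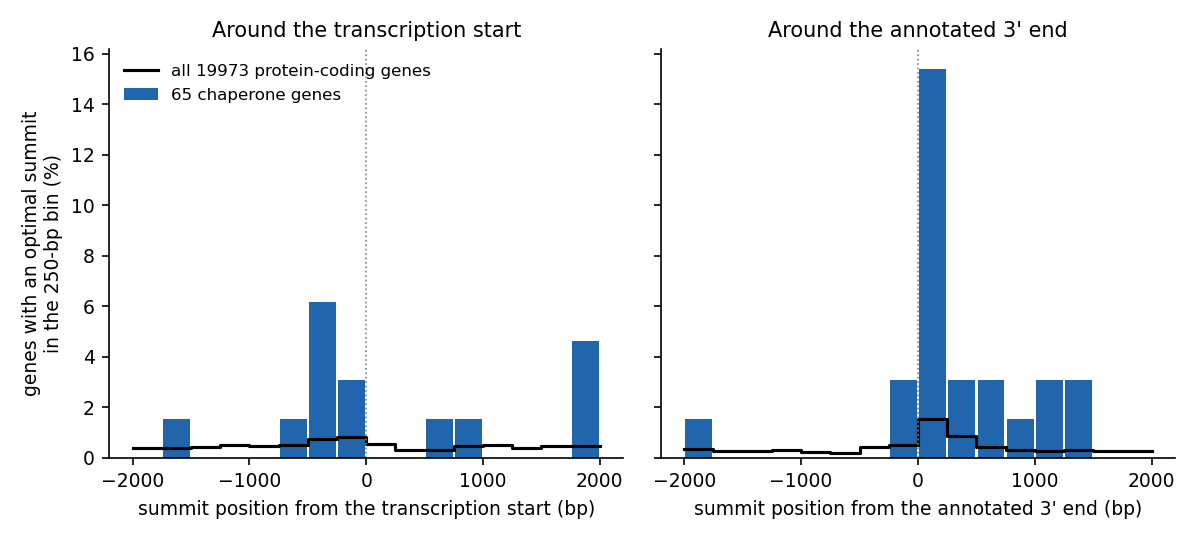
Share of genes (percent) with an optimal summit in each 250-bp bin from 2000 bp upstream to 2000 bp downstream of the TSS (left) and of the annotated 3′ end (right), for the 65 chaperone genes (bars) and all 19973 protein-coding genes (line). The highest bar, 15.4%, is the first bin past the 3′ end, where the line also has its highest value, 1.55%.

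The strongest 3′ peak belonged to cct-7, the gene of the eta subunit, which had no optimal promoter peak. The peak had a signal of 303.5 in the optimal list (rank 43), 139.4 in replicate 1 (rank 86) and 149.2 in replicate 2 (rank 53). In the optimal list it stood above every chaperone promoter peak. Its summit lay 149 bp past the 3′ end, in a UTR exon of zig-11 and 3402 bp from the nearest TSS, which was that of cct-7. At hsp-110 the 3′ peak ranked 182 in the optimal list, 824 in replicate 1 and 52 in replicate 2, with its summit 88 bp past the end. This summit was also 215 bp from the TSS of ufbp-1. At hsp-6 the 3′ peak ranked 282, with ranks 123 and 489 in replicates 1 and 2, and lay 332 bp past the end and 369 bp from the TSS of adss-1. These 3 genes thus had optimal signal at their 3′ end and weaker candidates at their promoter.

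An optimal summit also lay at the 3′ end of 4 of the 6 bound genes, dnj-13, hsp-60, hsp-1 and hsp-90 (6.15% of 65, against 0.491% of all genes with both). Only that of hsp-1 was outside the promoter window of every other gene. The dnj-13 summit lay 37 bp from the TSS of F54D5.7 and the hsp-60 summit 768 bp from that of Y22D7AL.4. The hsp-90 summit lay in hsp-90 coding sequence, 252 bp from the TSS of C47E8.11. At hsp-1 the 3′ peak had a signal of 193.4 (rank 219), with 77.9 in replicate 1 (rank 544) and 120.7 in replicate 2 (rank 132). Its summit lay 43 bp past the end of the gene and 2414 bp from the nearest TSS. At hsp-60 the 3′ peak had a signal of 233.8 (rank 120), with 110.8 in replicate 1 (rank 178) and 142.2 in replicate 2 (rank 68), 61 bp past the end. A further optimal peak at rank 82 lay on the far side of Y22D7AL.10, 2914 bp from the hsp-60 TSS, so this gene pair has an optimal peak on each outer side and one between the genes. The 3′ peaks of hsp-90 (rank 555) and dnj-13 (rank 782) were weaker than those at their promoters.

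Many of these 3′ summits were also near a neighbour's start. When summits in the promoter window of any other gene were left out, 4 of 65 remained (6.15%, against 1.60% of all genes), cct-7, hsp-1, dnj-5 and dnj-12. Of these, the dnj-5 summit lay in the coding sequence of C04A2.15 and 33 bp from a tRNA gene. That of dnj-12 lay in the coding sequence of tmem-107, 578 bp from its TSS, and 283 bp from a snoRNA gene. The cct-7 summit was in a UTR exon of zig-11, so only the hsp-1 summit was outside other protein-coding genes. The ends of a gene and the start of its neighbour cannot be told apart where they overlap. The part that transcription level or operon structure has in these counts was not tested.

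**Figure D4:**
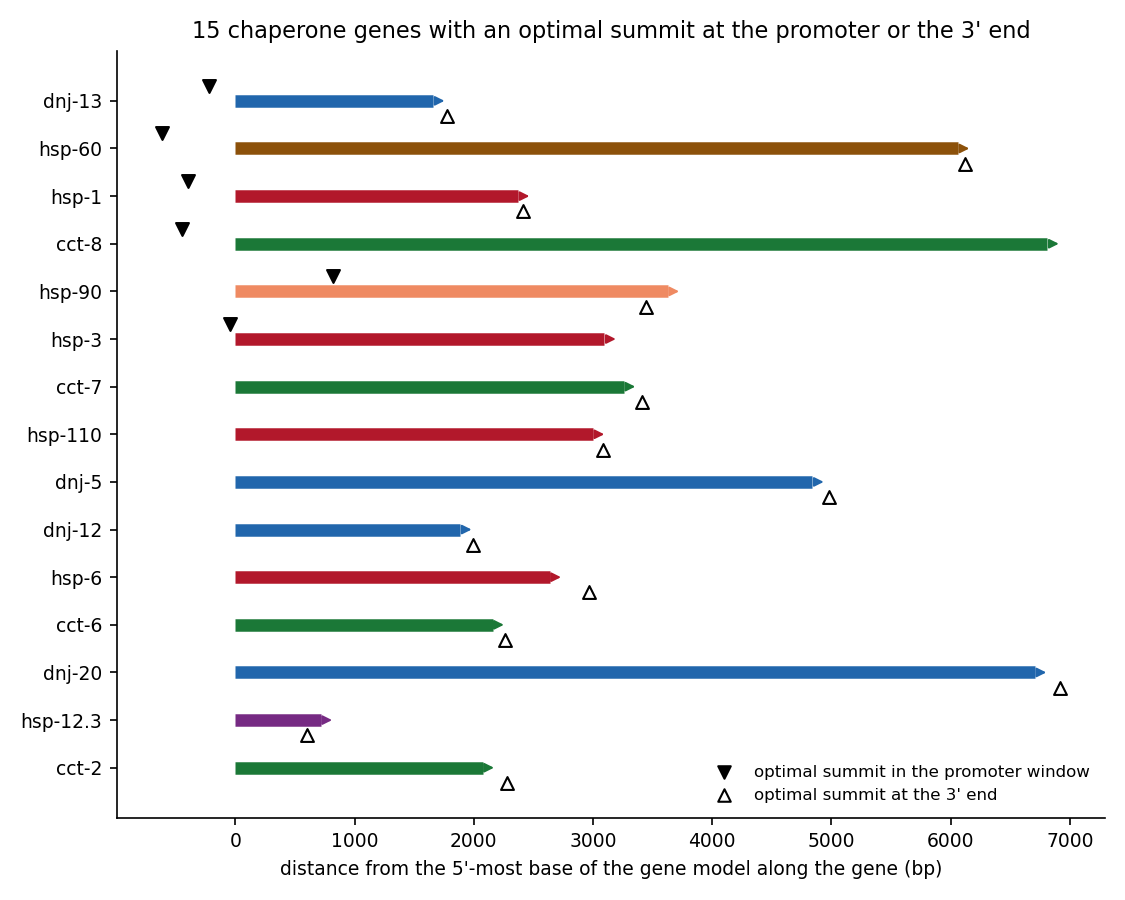
Gene models (bars, coloured by family as in the rank plot, 5′ to 3′ from left to right) of the 15 chaperone genes with an optimal summit in the promoter window (filled triangles) or at the 3′ end (open triangles), against distance from the 5′-most base of the model (bp). The filled triangle of hsp-90 lies inside the model because a longer transcript starts upstream, and 4 genes carry both marks.

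Heat shock elements stood upstream of both bound and unbound chaperone genes. A 3-unit element, GAANNTTC running on into NNGAA or TTCNNGAA running on into NNTTC, stood in the 500 bp upstream of 13 of 65 chaperone genes and of 3.25% of all protein-coding genes. Of the 13, 3 were bound, dnj-13, hsp-1 and hsp-90. The other 10 were not, namely dnj-12, hsp-110, hsp-6, hsp-70 and 6 hsp-16 genes. Of the hsp-16 genes, 4 are the near-identical hsp-16.1 and hsp-16.48 copies, where an empty list does not show low signal. The other bound genes, hsp-60, cct-8 and hsp-3, had no such element there, but the hsp-60 summit, 617 bp upstream, lay beyond the 500 bp searched. None of the 6 summit windows held the full element, which stood in 0.678% of all optimal windows.

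Genes that work beside the chaperones gave mixed counts, to be read beside the 3.0% of all genes with an optimal promoter peak. Of 25 co-chaperone and related HSP70 genes, 4 had an optimal promoter peak, bag-1, F44E5.4, F44E5.5 and Y22D7AL.10. RefSeq lists F44E5.4 and F44E5.5 as HSP70 proteins, though their names fall outside the name rule. They are divergent and share a peak, chrII:11759346-11759593, stronger in the optimal list than any promoter peak of the 65. Its signal was 331.2 in the optimal list (rank 28), 154.4 in replicate 1 (rank 53) and 175.4 in replicate 2 (rank 31). The summit lay 145 bp upstream of F44E5.4 and at -206 bp from the F44E5.5 TSS. Its summit with 50 bp on each side is shown because, unlike the 6 above, it holds the full 3-unit element in a run of alternating GAA units, in capitals. The windows of pbs-5 and uba-1, described next, hold one too.

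F44E5.4, chrII:11759406-11759506, minus strand: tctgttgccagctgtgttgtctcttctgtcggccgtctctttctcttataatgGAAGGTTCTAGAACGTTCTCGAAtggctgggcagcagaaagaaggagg

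Of 18 genes of folding and stress response in the endoplasmic reticulum, 2 were bound (11.1%), crt-1, the calreticulin gene, at rank 438 and pdi-2, a protein disulfide isomerase gene, at rank 675. Of 8 genes of CDC-48 and ubiquitin, 3 were bound (37.5%). The strongest was cdc-48.1, the gene of an unfolding ATPase, with a signal of 336.2 (rank 27), 152.0 in replicate 1 (rank 57) and 170.7 in replicate 2 (rank 32). The polyubiquitin gene ubq-1 ranked 733 and the ubiquitin-activating enzyme gene uba-1 ranked 670. Of 33 proteasome subunit genes, 2 were bound (6.06%), pbs-5 at rank 484 and rpn-12 at rank 749 with a summit nearer to rad-23. In replicate 2 the regions of pdi-2, ubq-1, pbs-5 and rpn-12 ranked 3423, 2375, 1342 and 2045, outside the strongest 1032, and that of uba-1 ranked 1373 in replicate 1. At the 3′ end, 10 of these 33 had an optimal summit (30.3%, against 2.69% of all genes), so such peaks were not limited to chaperone genes.

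Of 18 genes listed for mitochondrial import, proteases and stress response, 2 were bound, ymel-1, a protease gene of the inner membrane, at rank 636 and dnc-1 at rank 144. For ymel-1, replicate 2 had a region at rank 309, and replicate 1 listed none in the window. The gene dnc-1 codes for a dynactin subunit and does not belong to this theme, and its summit was nearer to lsm-7. None of the 8 genes listed with heat shock factor HSF-1 had an optimal promoter peak (0 of 8). For so few genes this is near the share over all genes. Beside regulators of HSF-1, that list also takes in daf-16, skn-1 and pqm-1. These lists were small and were drawn up with earlier results of the same data known.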

How the data were processed

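Binding of tagged F52B5.7 was measured by ChIP-seq in 2 replicates of 1 group. Per the submitters' file manifests, the authors called candidate regions for each replicate and for both pooled, against a control, and kept an optimal list after comparing ranks between lists (irreproducible discovery rate). The aligner, caller and threshold were not given in the sources used here. In the deposited lists, the signal value per region was used as the authors gave it, for ranking within a list. Candidate lists hold 30000 regions each, so read depth is unknown from them, and signal tracks were not used.

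Summits were joined to Ensembl release 115 models on ce11 with python 3.11.15, pandas 2.3.3 and numpy 2.4.6. Window and nearest-TSS steps were tested on simulated data. Optimal peaks were matched to the ce10 list by width, summit offset and signal (within 0.1%). RefSeq gave product names and sequence.

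The members and lists were chosen with earlier results of these data known. Named were bound members, the 3 best-ranked of each family, members among the 1032 strongest regions of a replicate, hsp-16.2, hsp-16.41, hsp-70, hsp-90, hsp-1, hsp-3, hsp-4, hsp-6 and hsp-60, genes nearer to a bound summit, and bound genes of related lists. The 3′ window, its named genes and the shared 6-mers were chosen after their values were seen.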

Additional observations from a re-analysis of the deposited data

How the results depend on the processing

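The count of 6 bound chaperone genes fell to 2 with 250 bp on each side of the TSS, to 3 with the nearest TSS only, and to 3 without peaks near small RNA genes or noncoding RNAs of up to 200 nt. Leaving out a replicate gave 7 to 9. The count in both replicates ranged from 5 to 7 as the lists were halved or doubled. Pooled candidates fell from 44 to 22 genes with 250 bp on each side. The 3′ count of 13 fell to 4 without summits in the promoter window of another gene, and was 12 to 13 when a replicate was left out. The 3′ alternatives were chosen after seeing the data. Among single families a count moved by at most 1 gene, which in families with 1 bound gene can be the whole count. With 250 bp on each side, and with the nearest TSS only, the HSP90, HSP60 and CCT counts fell from 1 to 0. Without peaks near small RNA genes or short noncoding RNAs, those of DNJ and CCT fell from 1 to 0. No paired analysis was possible because all samples belong to 1 group. Read depth behind the regions is unknown, so no error per gene could be given.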
